A study of Mus musculus with 6 samples.

Results

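The genes examined here encode the CD3 chains of the T cell receptor (TCR) and the proteins that act directly after it. They are *Cd3e*, *Cd3d*, *Cd3g* and *Cd247*, the kinases *Lck* and *Zap70*, the adaptors *Lat* and *Lcp2*, and *Themis*. These 9 genes were picked by name out of 54532 genes in the expression table, all 9 had a row, and all 9 passed the filter on low values that left 15520 genes to be tested. The list was chosen on measured differences between the same 6 libraries, so the genotype differences of the 9 genes are given as a description without a test. Each library came from the peri-infarct and infarct tissue of 1 mouse heart, taken on day 7 after myocardial infarction (MI) by ligation of the left anterior descending artery. There were 3 wild-type (WT) mice, labelled C57BL/6 and, per the study's methods, C57BL/6J males of 8 to 12 weeks, and 3 *Crlf2*-/- mice, labelled TSLPR KO, on a C57BL/6J background, whose sex and age the methods do not state separately. *Crlf2* encodes the receptor chain for thymic stromal lymphopoietin (TSLP), an epithelial cytokine. All 6 hearts were infarcted and no sham-operated or earlier sample is compared here. The WT and knockout mice were obtained from different suppliers, so strain source and genotype cannot be told apart.

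The TCR binds peptide on MHC molecules but has no signalling tail of its own. The signal passes through CD3 epsilon, delta, gamma and zeta, whose cytoplasmic tails carry immunoreceptor tyrosine-based activation motifs (ITAMs). LCK, bound to the CD4 or CD8 coreceptor, phosphorylates the ITAMs, ZAP-70 docks on them, and ZAP-70 then phosphorylates the adaptors LAT and SLP-76 (the product of *Lcp2*), on which calcium and Ras signalling is built. THEMIS tunes the strength of the signal, above all in developing thymocytes. T cells enter the heart after infarction, and most of these genes are transcribed mainly in T cells and, in part, in NK cells. *Lcp2* is also used by myeloid cells, mast cells and platelets, and *Lat* is also used by mast cells.

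The values were FPKM (fragments scaled to exon length and to the number of mapped fragments), from which the whole fragments behind each value were recovered. The libraries held 18508646 to 19682428 fragments on the listed genes, so depth differed little between them. The targeted gene, *Crlf2*, was covered by 917, 813 and 707 fragments in the WT hearts and by 437, 651 and 667 in the *Crlf2*-/- hearts. This was 24.5 ± 2.57 FPKM for WT and 17.2 ± 3.54 FPKM for *Crlf2*-/- (SD, n = 3 each), with every knockout library below every WT library (log2 fold change -0.52, SE 0.17, limma adjusted p = 0.521). A value per gene does not show which exons were read, so it does not check the deletion. Over all genes tested the median log2 fold change was -0.0042, and limma called 2 genes, 0.0129% of those tested, with thresholds of 0.05 on the adjusted p and 0.5 on the size of the log2 fold change. At the same thresholds the study itself, by DESeq2, reported far more genes, with *Lck* and *Cd3e* among those lower in *Crlf2*-/- hearts. The methods were not compared here. In the defining markers of heart muscle, the 7 cardiomyocyte genes summed to 201 to 357 FPKM in WT and 135 to 283 FPKM in *Crlf2*-/- hearts, so the labelled tissue was present in every library, although the extraction text of the labels speaks of retina.

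All 4 CD3 chains were lower in every *Crlf2*-/- heart than in any WT heart, beside 6.37% of all genes tested. The chains were chosen on this contrast, so the count is a description. Mean levels of the 4 chains were between 24.1% and 40.0% of WT. *Cd3e*, *Cd3d* and *Cd3g* lie side by side on chromosome 9 and *Cd247* on chromosome 1. In bulk tissue, fewer T cells and less RNA per T cell cannot be told apart, and this holds for every difference below.

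*Cd3e* encodes CD3 epsilon, which pairs with both the gamma and the delta chain (ENSMUSG00000032093, GRCm38 chromosome 9, 44998740 to 45009627, minus strand, 4080 exonic bases). The WT hearts gave 46, 65 and 52 fragments and the *Crlf2*-/- hearts 24, 9 and 18, or 0.490, 0.735 and 0.583 FPKM against 0.265, 0.0946 and 0.196 FPKM. The lowest library was the *Crlf2*-/- replicate 2, and its 9 fragments have an exact 95% Poisson interval of 4.12 to 17.1, which covers counting error only. Averaged over 3 hearts a genotype, this was 0.603 ± 0.124 (SD) FPKM for WT and 0.185 ± 0.0858 (SD) FPKM for *Crlf2*-/-, a log2 fold change of -1.33 (SE 0.29). Fold changes here are of FPKM scaled between libraries with 0.1 added, which makes those of low genes smaller than the ratio of the means.

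*Cd3d* encodes CD3 delta (ENSMUSG00000032094, chromosome 9, 44981786 to 44987339, plus strand, 1815 exonic bases). Fragments on the gene numbered 76, 91 and 45 for WT and 27, 38 and 22 for *Crlf2*-/-, or 1.82, 2.31 and 1.13 FPKM against 0.671, 0.898 and 0.538 FPKM. The groups did not overlap, but WT replicate 3 came within a few fragments of the highest knockout library. WT hearts averaged 1.75 ± 0.593 (SD) FPKM and *Crlf2*-/- hearts 0.702 ± 0.182 (SD) FPKM over 3 hearts each, with a log2 fold change of -1.18 (SE 0.28). *Cd3d* had the highest level of the 4 chains in all 6 libraries.

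*Cd3g* encodes CD3 gamma (ENSMUSG00000002033, chromosome 9, 44969572 to 44980431, minus strand, 3269 exonic bases). There were 96, 123 and 66 fragments across the WT hearts and 32, 23 and 33 across the *Crlf2*-/- hearts, or 1.28, 1.74 and 0.923 FPKM against 0.441, 0.302 and 0.448 FPKM. The lowest WT library, with 66 fragments, was well above the highest knockout library, with 33. Group means (SD, n = 3 each) were 1.31 ± 0.408 FPKM for WT and 0.397 ± 0.0826 FPKM for *Crlf2*-/-, with a log2 fold change of -1.48 (SE 0.26).

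*Cd247* encodes the zeta chain, which carries more ITAMs than any other CD3 chain (ENSMUSG00000005763, chromosome 1, 165788681 to 165877277, plus strand, 5329 exonic bases). The WT hearts gave 77, 58 and 44 fragments and the *Crlf2*-/- hearts 9, 17 and 18, or 0.628, 0.502 and 0.378 FPKM against 0.0761, 0.137 and 0.150 FPKM. Averaged over 3 hearts a genotype, this was 0.502 ± 0.125 (SD) FPKM for WT and 0.121 ± 0.0393 (SD) FPKM for *Crlf2*-/-, a level of 24.1% of WT and a log2 fold change of -1.44 (SE 0.26). The gene overlaps *Pou2f1*, which is on the opposite strand and had 182 to 263 fragments, and whether the counting used strand is not given in the sources used here. *Pou2f1* itself had a log2 fold change of 0.16.

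The makeup of the CD3 chains was compared within each library as the share of each chain in their summed FPKM. *Cd3d* made up 37.6% to 43.8% in WT and 40.4% to 62.7% in *Crlf2*-/- hearts, and *Cd3g* 30.3% to 32.8% and 21.1% to 33.6%. *Cd247* made up 9.50% to 14.9% in WT and 5.24% to 11.3% in *Crlf2*-/- hearts. The ranges of the groups overlapped for all 4 chains, so the shares did not separate the genotypes. The summed level was 3.02 to 5.29 FPKM in WT and 1.33 to 1.45 FPKM in *Crlf2*-/- hearts, so the WT hearts were the more variable group.

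**Figure D1:**
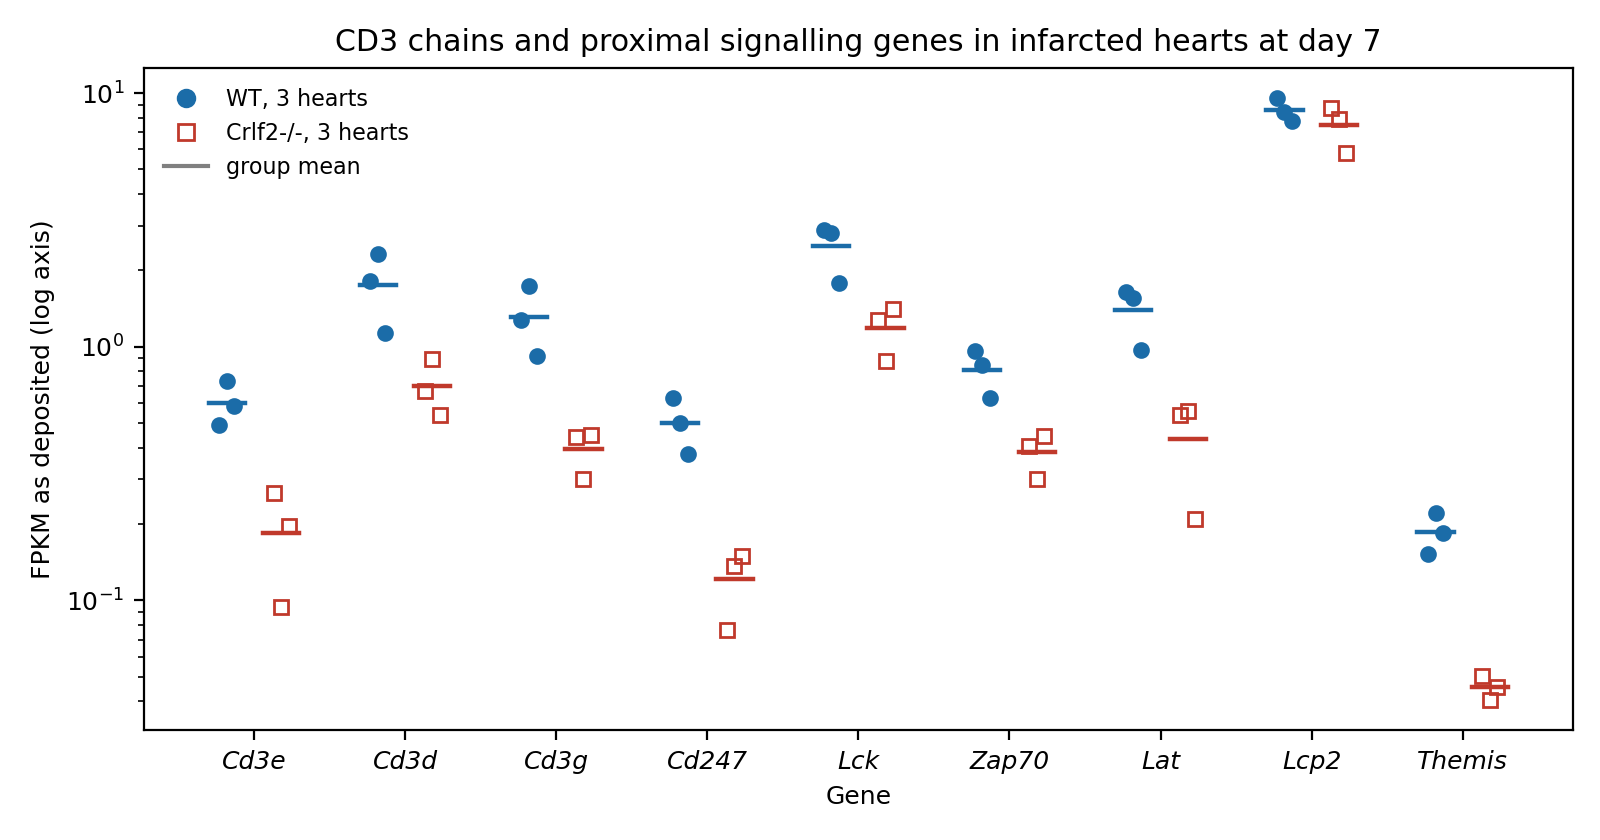
Deposited FPKM of the 9 genes in each library on a log axis, with WT hearts as filled circles, *Crlf2*-/- hearts as open squares and the group mean as a bar (n = 3 each). For 8 of the 9 genes, which were chosen on this contrast, every knockout heart lies below every WT heart, beside 6.37% of all genes tested. For *Lcp2* the groups overlap.

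The promoters of the 3 neighbouring CD3 genes are shown because the genes were lower together, with that of *Lcp2*, whose groups overlapped, beside them. *Cd3g* and *Cd3d* are read in opposite directions from starts 1355 bases apart, and the start of *Cd3e* is 27.8 kb from that of *Cd3d*. Each line gives the 250 bases before the annotated start, 5′ to 3′ on the gene's own strand, from RefSeq on GRCm38.p6, where all 9 genes matched with 13 start sites. The positions are chr9:44980432-44980681 (minus) for *Cd3g*, chr9:44981536-44981785 (plus) for *Cd3d*, chr9:45009612-45009861 (minus) for *Cd3e* and chr11:34046678-34046927 (plus) for *Lcp2*. Capitals mark matches on either strand to AGATAA (the GATA motif), TGTGGT (RUNX), CTTTGA (TCF/LEF), GGAAG (a core of the ETS motif), TATAAA (the TATA box) and CAGCTG (an E box).
Cd3g: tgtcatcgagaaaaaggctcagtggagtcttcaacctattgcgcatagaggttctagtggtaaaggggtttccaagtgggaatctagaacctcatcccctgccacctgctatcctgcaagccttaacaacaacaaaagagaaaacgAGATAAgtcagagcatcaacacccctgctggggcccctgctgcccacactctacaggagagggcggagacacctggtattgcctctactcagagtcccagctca
Cd3d: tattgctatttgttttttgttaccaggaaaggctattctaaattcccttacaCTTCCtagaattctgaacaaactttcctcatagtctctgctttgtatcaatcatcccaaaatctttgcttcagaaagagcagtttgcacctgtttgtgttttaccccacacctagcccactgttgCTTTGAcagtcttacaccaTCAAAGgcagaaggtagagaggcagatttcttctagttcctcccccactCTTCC
Cd3e: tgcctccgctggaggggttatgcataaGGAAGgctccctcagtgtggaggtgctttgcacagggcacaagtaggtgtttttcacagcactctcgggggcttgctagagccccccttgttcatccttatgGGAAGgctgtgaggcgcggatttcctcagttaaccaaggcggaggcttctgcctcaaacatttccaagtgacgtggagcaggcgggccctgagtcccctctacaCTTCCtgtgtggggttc
Lcp2: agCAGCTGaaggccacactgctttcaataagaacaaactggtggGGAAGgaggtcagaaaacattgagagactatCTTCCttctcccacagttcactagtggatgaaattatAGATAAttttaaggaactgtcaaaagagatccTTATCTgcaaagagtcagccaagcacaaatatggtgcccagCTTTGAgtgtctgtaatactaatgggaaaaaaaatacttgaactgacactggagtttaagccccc
The marked matches do not overlap each other. ETS letters were found in the *Cd3d*, *Cd3e* and *Lcp2* windows and in 9 of the 13 windows in all, beside 64.1% of 32851 promoters of the same length. TCF/LEF letters were found in the *Cd3d*, *Lcp2* and *Zap70* windows, beside 13.8% of all promoters. GATA letters were found in the *Cd3g* and *Lcp2* windows, beside 9.99% of all promoters. RUNX letters were in 2 of the 13 windows, those of *Lck* and *Zap70*, beside 14.0% of all promoters, and E box letters in 1, that of *Lcp2*, beside 13.0%. TATA letters were in 0 of the 13 windows, beside 12.4% of all promoters. These matches are letters in a window and were not tested for binding. The window of *Lcp2*, whose groups overlapped, held 4 of the 6 motifs, more than the windows of the 3 CD3 genes.

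Both kinases, also chosen on this contrast, were lower in every *Crlf2*-/- heart than in any WT heart, beside 6.37% of all genes tested. Their levels were 47.4% to 47.8% of the WT mean. *Lck*, the Src family kinase that phosphorylates the ITAMs (ENSMUSG00000000409, chromosome 4, 129548344 to 129573641, minus strand, 2929 exonic bases), was covered by 194, 178 and 114 fragments in the WT hearts and by 83, 60 and 93 in the *Crlf2*-/- hearts. These are 2.88, 2.80 and 1.78 FPKM against 1.28, 0.878 and 1.41 FPKM. No knockout library reached the lowest WT library. WT hearts averaged 2.49 ± 0.613 (SD) FPKM and *Crlf2*-/- hearts 1.19 ± 0.276 (SD) FPKM over 3 hearts each, 47.8% of WT, with a log2 fold change of -0.996 (SE 0.24). *Lck* and *Cd3e* are among the genes that the study itself picked from these samples to describe T cell activation, so their direction is not independent evidence.

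*Zap70* encodes the kinase that binds phosphorylated ITAMs (ENSMUSG00000026117, chromosome 1, 36761798 to 36782818, plus strand, 2992 exonic bases). Fragments on the gene numbered 66, 55 and 41 for WT and 27, 21 and 30 for *Crlf2*-/-, or 0.958, 0.848 and 0.627 FPKM against 0.407, 0.301 and 0.445 FPKM. Group means (SD, n = 3 each) were 0.811 ± 0.169 FPKM for WT and 0.384 ± 0.0746 FPKM for *Crlf2*-/-, 47.4% of WT, with a log2 fold change of -0.90 (SE 0.24). *Zap70* and *Lck* kept nearly the same proportion in every heart. The ratio of *Zap70* to *Lck* FPKM was 0.302 to 0.352 in WT and 0.316 to 0.343 in *Crlf2*-/- hearts. The ratio of *Lck* to the summed CD3 chains was 0.530 to 0.683 in WT and 0.614 to 1.06 in *Crlf2*-/- hearts, and these ranges overlapped.

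The adaptors had unlike values, and the contrast between them was not tested. *Lat* encodes the membrane adaptor that ZAP-70 phosphorylates (ENSMUSG00000030742, chromosome 7, 126363824 to 126369570, minus strand, 2767 exonic bases). There were 105, 93 and 59 fragments across the WT hearts and 33, 36 and 13 across the *Crlf2*-/- hearts, or 1.65, 1.55 and 0.975 FPKM against 0.538, 0.558 and 0.208 FPKM. The lowest library of each group was replicate 3. Averaged over 3 hearts a genotype, this was 1.39 ± 0.364 (SD) FPKM for WT and 0.435 ± 0.196 (SD) FPKM for *Crlf2*-/-, 31.2% of WT, with a log2 fold change of -1.53 (SE 0.34). *Lat* varied widely within groups, with a pooled SD of 0.51 on the log2 scale.

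*Lcp2* encodes SLP-76, the adaptor that joins LAT to effectors such as VAV1 (ENSMUSG00000002699, chromosome 11, 34046920 to 34092295, plus strand, 4459 exonic bases). The WT hearts gave 984, 815 and 756 fragments and the *Crlf2*-/- hearts 866, 824 and 586, or 9.58, 8.43 and 7.75 FPKM against 8.76, 7.92 and 5.83 FPKM. The groups overlapped, since *Crlf2*-/- replicates 1 and 2 lay within the WT range. WT hearts averaged 8.59 ± 0.925 (SD) FPKM and *Crlf2*-/- hearts 7.50 ± 1.51 (SD) FPKM over 3 hearts each, 87.3% of WT, with a log2 fold change of -0.20 (SE 0.16). Its difference rested largely on *Crlf2*-/- replicate 3, and leaving out 1 library at a time moved it between -0.33 and -0.04. Among other cells that use *Lcp2*, the 8 macrophage and monocyte genes summed to 1717 to 3140 FPKM in WT and 1825 to 2661 FPKM in *Crlf2*-/- hearts, the 7 mast cell genes to 4.99 to 6.76 and 3.87 to 6.66 FPKM, much of it from *Kit* (2.28 to 4.01 FPKM), which other cells also use, and the 6 platelet and megakaryocyte genes to 35.6 to 85.4 and 52.8 to 88.0 FPKM, with overlapping groups for each list. The macrophage sum was mostly *Lyz2* (1313 to 2575 FPKM) and the platelet sum mostly *Pf4* (34.4 to 86.0 FPKM), with *Gp1bb* at 0 fragments throughout. Of the 8 macrophage and monocyte genes, 6 had log2 fold changes above 0 and 2 below. *Csf1r* was at 0.14 (SE 0.10) and *Ly6c2* at 0.57 (SE 0.17). For these 2, every knockout library was above every WT library, beside 5.37% of all genes. The 4 mast cell genes tested had log2 fold changes below 0, with a median of -0.44. The mast cell genes left untested were *Tpsb2*, *Ms4a2* and *Fcer1a*, and they did not share a direction. *Tpsb2* had 8, 4 and 5 fragments across the WT hearts and 26, 4 and 19 across the knockout hearts. *Ms4a2* had 7 fragments in *Crlf2*-/- replicate 2 and 0 elsewhere, and *Fcer1a* had 2, 1 and 9 against 0, 1 and 0. *Mcpt4*, a mast cell protease gene, was read 11, 10 and 15 times across the WT hearts against 5, 7 and 3 times across the knockout hearts, with no overlap (log2 fold change -0.996, SE 0.27, limma adjusted p = 0.369). The part of mast cells in the lower *Lat* and *Lcp2* values was not tested. *Lcp2* had the highest level of the 9 genes and held 53.1% to 61.8% of their fragments in WT and 71.0% to 79.3% in *Crlf2*-/- hearts.

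*Themis* encodes a regulator of TCR signal strength named for its role in the thymus (ENSMUSG00000049109, chromosome 10, 28668360 to 28883818, plus strand, 11682 exonic bases). Fragments on the gene numbered 41, 56 and 47 for WT and 13, 11 and 12 for *Crlf2*-/-, or 0.152, 0.221 and 0.184 FPKM against 0.0502, 0.0404 and 0.0456 FPKM. The knockout hearts were close together, and the lowest WT heart, with 41 fragments, was far above them. Group means (SD, n = 3 each) were 0.186 ± 0.0344 FPKM for WT and 0.0454 ± 0.00491 FPKM for *Crlf2*-/-, 24.4% of WT, although the log2 fold change was only -0.97 (SE 0.22) because its FPKM was near the added 0.1. With 0.01 added the log2 fold change of *Themis* was -1.81, and with 1 added -0.18. Defining genes of thymocytes were at or near 0, with *Rag2* at 0 in all 6 libraries, *Ptcra* at 1 fragment at most and *Rag1* at 5 at most. *Arpp21*, another gene of that list, had 62 fragments in *Crlf2*-/- replicate 2 and 2 to 6 in the other 5 libraries.

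The median of the 9 log2 fold changes was -1.18, and every *Crlf2*-/- library was below every WT library for 8 of the 9, beside 6.37% of all genes tested in that direction. Nothing is read from this count, since the genes were chosen on this contrast. The 8 genes other than *Lcp2* summed to 701, 719 and 468 fragments for WT and to 248, 215 and 239 for *Crlf2*-/-. The WT replicate 3 was thus the lowest of its group, and leaving out 1 library at a time moved the median of the 9 log2 fold changes between -1.34 and -0.97. The order of the mean FPKM was *Lcp2*, *Lck*, *Cd3d*, *Lat*, *Cd3g*, *Zap70*, *Cd3e*, *Cd247* and *Themis* in both genotypes. In WT hearts, neighbours in this order from *Lck* to *Cd247* were not separated by their SDs, while *Lcp2* stood clearly above and *Themis* clearly below the rest.

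Within groups the 9 genes did not vary as one block. Deviations from the group mean of log2 values were correlated over the 6 libraries, which leaves few degrees of freedom, and the r values are descriptions. *Lck* and *Zap70* deviated together (r = 0.98), as did *Lat* and *Lcp2* (r = 0.93) and *Cd3g* and *Lck* (r = 0.88). *Cd3e* and *Cd247* deviated in opposite directions (r = -0.51), with *Cd3e* lowest and *Cd247* mid-range in *Crlf2*-/- replicate 2. Over the 36 pairs the median was 0.17 and 9 pairs were negative. The counting error of 1 library was 24.3% for *Cd3e* and 26.1% for *Cd247* at the mean knockout count, and 3.63% for *Lcp2*.

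The other genes of the TCR pathway were taken from a list of 48, of which 47 had a row and 45 were tested. Of the 45, 30 had a log2 fold change below 0 and 15 above, with a median of -0.09 beside -0.0042 for all genes tested. By limma 0 of 45 were called, beside 0.0129% of all genes, and by voom 0. At an unadjusted p under 0.05, 9 of 45 were lower, beside 3.36% of all genes, and 1 of 45 was higher, beside 3.22%. Every knockout library was below every WT library for 11 of 45, beside 6.37% of all genes, and above for 2, beside 5.37%. By role, those lower at an unadjusted p under 0.05 were 3 of 4 TCR constant regions, 2 of 3 coreceptors, 0 of 5 kinases, 3 of 11 adaptors and scaffolds, 0 of 7 effector enzymes, 1 of 8 phosphatases and ligases and 0 of 7 transcription factors.

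**Figure D2:**
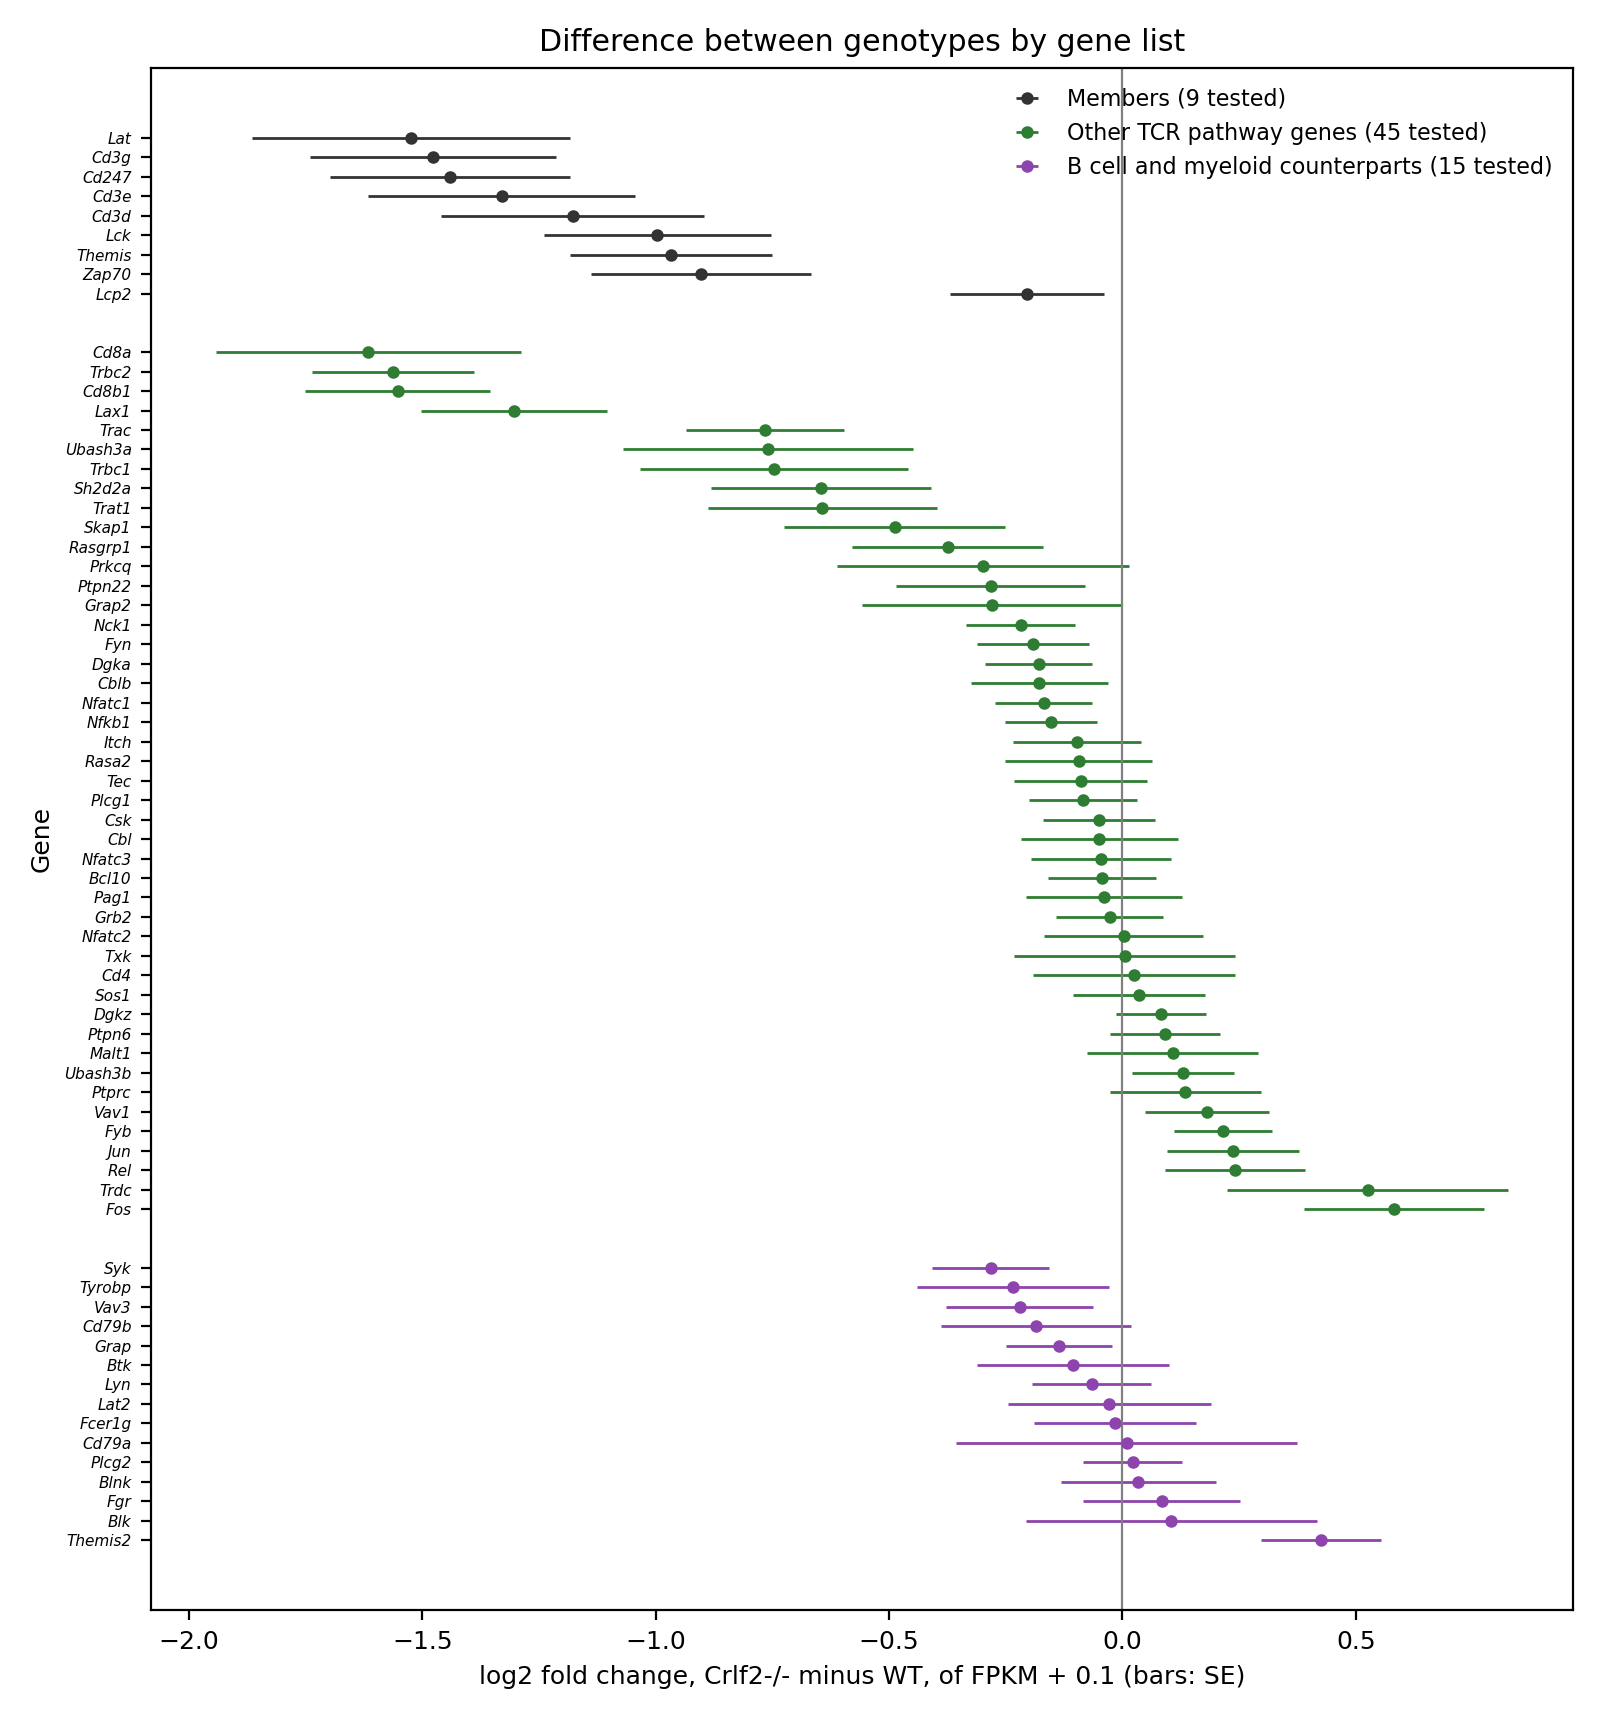
Log2 fold change with SE of the 9 genes, 45 other TCR pathway genes and 15 counterparts from B cells and myeloid cells, each list sorted by value, with *Crlf2*-/- lower to the left of 0. The medians of the 3 lists are -1.18, -0.09 and -0.03.

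Among the antigen-binding chains, *Trbc2*, the beta constant region, was covered by 123, 97 and 88 fragments in the WT hearts and by 28, 44 and 32 in the *Crlf2*-/- hearts. Its log2 fold change was -1.56 (SE 0.17, limma adjusted p = 0.0637), which misses the threshold. *Trac*, the alpha constant region, was covered by 178, 196 and 138 fragments in the WT hearts and by 114, 107 and 83 in the *Crlf2*-/- hearts (log2 fold change -0.77, SE 0.17, limma adjusted p = 0.254). The summed FPKM of the CD3 chains was 0.447 to 0.547 times that of *Trac* in WT and 0.264 to 0.338 times in *Crlf2*-/- hearts, which do not overlap. Set against *Trbc2* it was 0.519 to 0.817 times and 0.525 to 0.797 times, which overlap. *Trdc*, the delta constant region of gamma delta T cells, was covered by 12, 4 and 14 fragments in the WT hearts and by 20, 12 and 22 in the *Crlf2*-/- hearts (log2 fold change 0.53, SE 0.30, limma adjusted p = 0.867), and the groups overlapped. *Trbc1*, the other beta constant region, had 84, 75 and 43 fragments in the WT hearts and 49, 28 and 42 in the *Crlf2*-/- hearts. Its groups overlapped (log2 fold change -0.75, SE 0.29, limma adjusted p = 0.691). The constant regions *Trbc1* and *Trbc2* are near-identical copies, so how the counting split their shared reads is uncertain. The ratio of the CD3 chains to *Trbc2* alone carries the same uncertainty and does not give their ratio to both beta constant regions together.

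The coreceptors had unlike values. *Cd8a*, which carries LCK to MHC class I, was covered by 224, 247 and 154 fragments in the WT hearts and by 106, 43 and 52 in the *Crlf2*-/- hearts (log2 fold change -1.62, SE 0.33, limma adjusted p = 0.216). *Cd4*, which carries LCK to MHC class II and is also transcribed in some myeloid cells, was covered by 165, 115 and 107 fragments in the WT hearts and by 108, 174 and 121 in the *Crlf2*-/- hearts (log2 fold change 0.02, SE 0.22, limma adjusted p = 0.996). For *Cd8a* the groups did not overlap, and for *Cd4* they overlapped throughout. The summed CD3 FPKM was 2.37 to 4.02 times that of *Cd4* in WT and 0.773 to 1.20 times in *Crlf2*-/- hearts. The difference between the *Cd4* and *Cd8a* fold changes was not tested.

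The 5 other kinases tested ran from -0.30 (SE 0.31) for *Prkcq*, which encodes protein kinase C theta, to 0.00 (SE 0.24) for *Txk*, on 8 to 20 *Txk* fragments a library. *Fyn*, the Src kinase that shares targets with LCK and is used in many tissues, had 1147 to 1368 fragments in WT and 1038 to 1202 in *Crlf2*-/- hearts (log2 fold change -0.19, SE 0.12, limma adjusted p = 0.897). The ratio of *Fyn* to *Lck* FPKM was therefore 4.73 to 6.75 in WT and 8.68 to 11.6 in *Crlf2*-/- hearts.

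Of 13 adaptors and scaffolds, 11 were tested and 9 of these were below 0. The lowest was *Lax1*, a membrane adaptor that limits antigen receptor signalling, with 67, 77 and 78 fragments in the WT hearts and 32, 29 and 22 in the knockout hearts (log2 fold change -1.30, SE 0.20, limma adjusted p = 0.110). The highest was *Fyb*, which encodes the SLP-76 partner ADAP, at 0.22 (SE 0.11). The 7 effector enzymes and exchange factors ran from -0.37 (SE 0.20) for *Rasgrp1*, a Ras activator, to 0.18 (SE 0.13) for *Vav1*. The 8 phosphatases and ubiquitin ligases ran from -0.76 (SE 0.31) for *Ubash3a*, a T cell regulator, to 0.14 (SE 0.16) for *Ptprc*, which encodes the pan-leukocyte phosphatase CD45. The 7 transcription factors ran from -0.17 (SE 0.10) for *Nfatc1* to 0.58 (SE 0.19, limma adjusted p = 0.551) for *Fos*, an immediate early gene of many cell types.

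Many leukocytes signal through receptors built on the same plan with related proteins. The 16 such counterparts, of which 15 were tested, centred on a log2 fold change of -0.03 (median), with 9 below 0 and 6 above. By limma 0 of 15 were called, and by voom 0. At an unadjusted p under 0.05, 0 were lower and 1, *Themis2*, was higher, beside 3.36% and 3.22% of all genes. The ITAM subunits ran from -0.23 (SE 0.21) for *Tyrobp*, which encodes DAP12, to 0.01 (SE 0.37) for *Cd79a* of the B cell receptor. The kinases ran from -0.28 (SE 0.13) for *Syk* to 0.10 (SE 0.31) for *Blk*, a B cell kinase. The adaptors ran from -0.14 (SE 0.11) for *Grap* to 0.03 (SE 0.17) for *Blnk*, and the effectors from -0.22 (SE 0.16) for *Vav3* to 0.43 (SE 0.13) for *Themis2*.

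Levels per length show how far the myeloid form outweighed the T cell form in these hearts. *Fcer1g*, the ITAM subunit of Fc receptors and the closest relative of *Cd247*, was at 318 to 384 times the FPKM of *Cd247* in WT and 991 to 2320 times in *Crlf2*-/- hearts. Its own log2 fold change was -0.01 (SE 0.17, limma adjusted p = 0.996). *Syk*, the relative of *Zap70*, was at 11.1 to 15.3 times *Zap70* in WT and 17.9 to 25.8 times in *Crlf2*-/- hearts (own log2 fold change -0.28, SE 0.13, limma adjusted p = 0.773). *Lat2*, the LAT-like adaptor of B cells, mast cells and myeloid cells, was at 3.80 to 6.10 times *Lat* in WT and 10.7 to 33.2 times in *Crlf2*-/- hearts (own log2 fold change -0.03, SE 0.22, limma adjusted p = 0.996). For these pairs the ranges of the genotypes did not overlap. *Blnk*, which does in B cells what SLP-76 does in T cells, was at 0.539 to 0.717 times *Lcp2* in WT and 0.648 to 0.862 times in *Crlf2*-/- hearts, and these ranges overlapped.

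*Themis2*, the relative of *Themis* in B cells and macrophages, was covered by 899, 734 and 857 fragments in the WT hearts and by 966, 1347 and 1125 in the *Crlf2*-/- hearts. Every knockout library was above every WT library (log2 fold change 0.43, SE 0.13, limma adjusted p = 0.469), the opposite direction to *Themis*. Its FPKM was 49.7 to 83.2 times that of *Themis* in WT and 282 to 465 times in *Crlf2*-/- hearts. The difference between the fold changes of this pair was not tested.

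**Figure D3:**
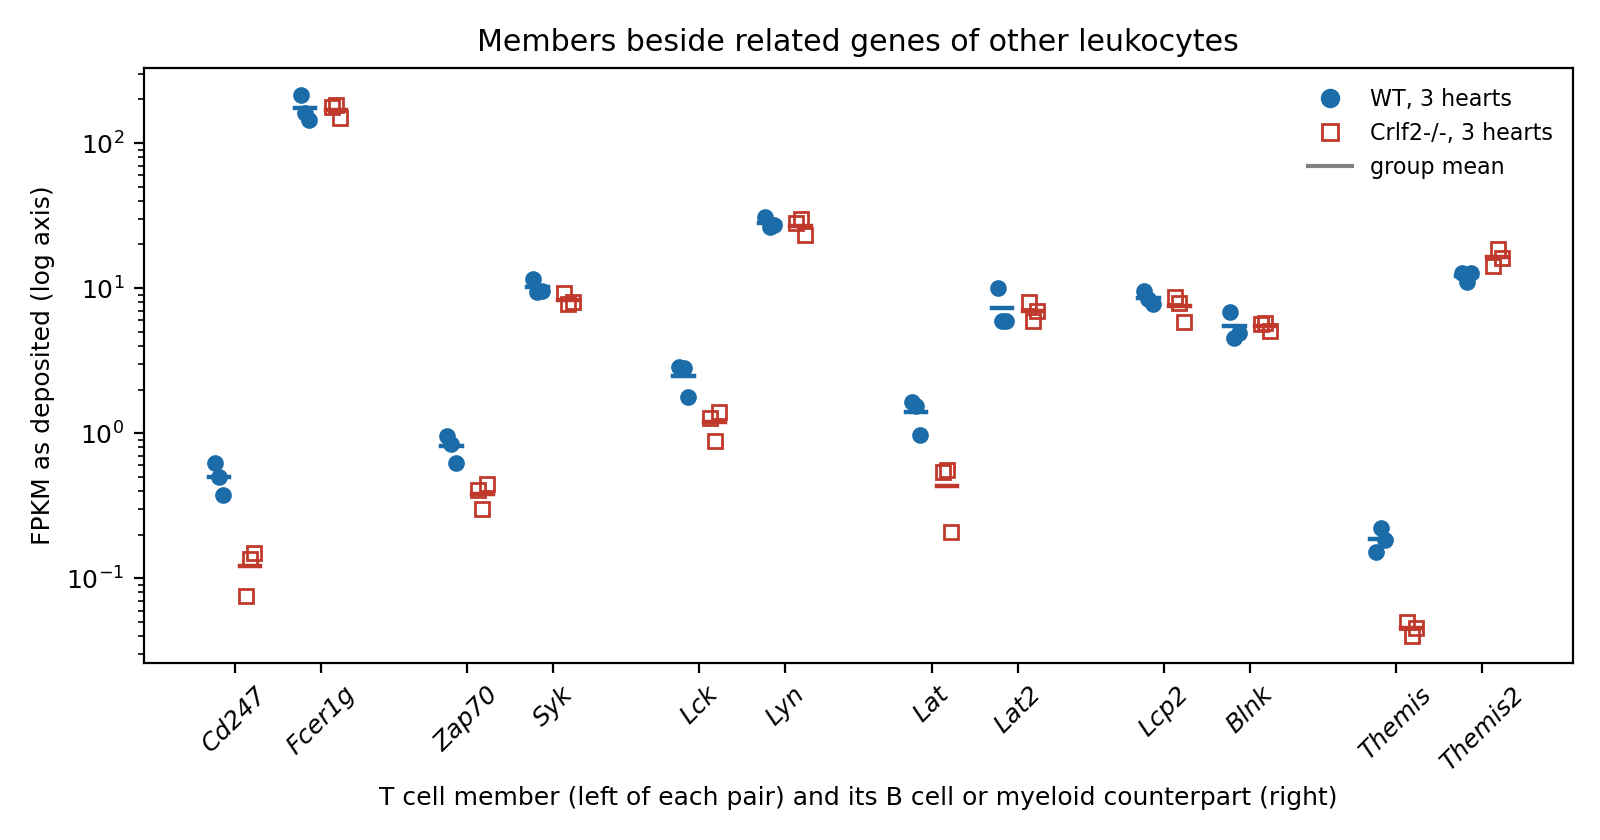
Deposited FPKM on a log axis of 6 of the genes (left of each pair) and of the related gene of B cells or myeloid cells (right), WT as filled circles and *Crlf2*-/- as open squares, with the group mean as a bar (n = 3 each). *Fcer1g* lies more than 300-fold above *Cd247* in every heart, while *Lcp2* and *Blnk* lie close together.

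Markers of the cells that use these genes were set beside them. Of 11 further T cell markers, 10 were below 0, with a median log2 fold change of -0.76, and for 6 of the 11 every knockout library was below every WT library, beside 6.37% of all genes. The list's summed level was 16.2 to 21.3 FPKM in WT and 10.8 to 17.9 FPKM in *Crlf2*-/- hearts, and these ranges overlapped. *Il7r* had the highest level of the 11 in every library, with means of 6.38 FPKM in WT and 5.99 FPKM in *Crlf2*-/- hearts. Its fragments numbered 971, 562 and 463 for WT and 931, 504 and 457 for *Crlf2*-/- (log2 fold change -0.11, SE 0.33). Of 8 NK cell markers, 3 were below 0 and 5 above, with a median of 0.08, and the summed level was 14.5 to 16.2 FPKM in WT and 6.69 to 11.5 FPKM in *Crlf2*-/- hearts. These sums did not overlap. *Nkg7* and *Gzma* made up most of them, with means of 8.2 and 4.2 FPKM in WT and 3.5 and 2.4 FPKM in *Crlf2*-/- hearts. The 5 above 0 were *Ncr1*, *Klrb1c*, *Klrk1*, *Klre1* and *Eomes*, and the 3 below were *Nkg7*, *Gzma* and *Prf1*. *Nkg7*, a granule gene that NK cells share with cytotoxic T cells, was covered by 180, 177 and 144 fragments in the WT hearts and by 68, 51 and 98 in the *Crlf2*-/- hearts (log2 fold change -1.25, SE 0.23, limma adjusted p = 0.150). The NK receptor gene *Ncr1* was covered by 22, 23 and 10 fragments in the WT hearts and by 49, 12 and 40 in the *Crlf2*-/- hearts, with overlapping groups. The median over the 6 genes of all leukocytes was 0.07. Relative to *Ptprc*, the CD3 chains together had 65.5, 104 and 44.9 fragments per 1000 *Ptprc* fragments in WT and 17.7, 20.5 and 21.2 in *Crlf2*-/- hearts.

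Genes of red blood cells and heart muscle were examined too, and limma called none of them. All 5 red blood cell genes had log2 fold changes below 0, with a median log2 fold change of -1.29 and a summed level of 226 to 370 FPKM in WT and 84.9 to 162 FPKM in *Crlf2*-/- hearts, and for 5 of 5 every knockout library was below every WT library, beside 6.37% of all genes. At an unadjusted p under 0.05, 5 of 5 were lower, beside 3.36% of all genes. *Hba-a2* was covered by 183, 236 and 178 fragments in the WT hearts and by 83, 85 and 92 in the *Crlf2*-/- hearts (log2 fold change -1.20, SE 0.14, limma adjusted p = 0.0637). The 7 cardiomyocyte genes had log2 fold changes below 0, with a median of -0.43 and overlapping groups for each, and 2 of 7 had an unadjusted p under 0.05. The part of blood content or of the sampled region in the lower TCR genes was not tested.

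On chromosome 9 the lower levels of the CD3 genes were set beside the genes around them. The 3 genes span 40.1 kb, and within 100 kb on either side 5 other genes were tested. *Ube4a*, a ubiquitin ligase gene, was at 0.06 (SE 0.13), *Kmt2a*, a histone methyltransferase gene, at -0.10 (SE 0.27) and *Mpzl3* at -0.20 (SE 0.21). *Atp5l*, a subunit of ATP synthase, was at -0.39 (SE 0.12, limma adjusted p = 0.461), and *Jaml*, a leukocyte adhesion gene, at -0.48 (SE 0.37). For *Atp5l* every knockout library was below every WT library, beside 6.37% of all genes. None of the 5 had a log2 fold change as low as those of the CD3 genes. The CD3 genes were chosen on this contrast and the neighbours were not, so nothing is read from that difference. In the window, 9 further genes had under 10 fragments in every library.

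**Figure D4:**
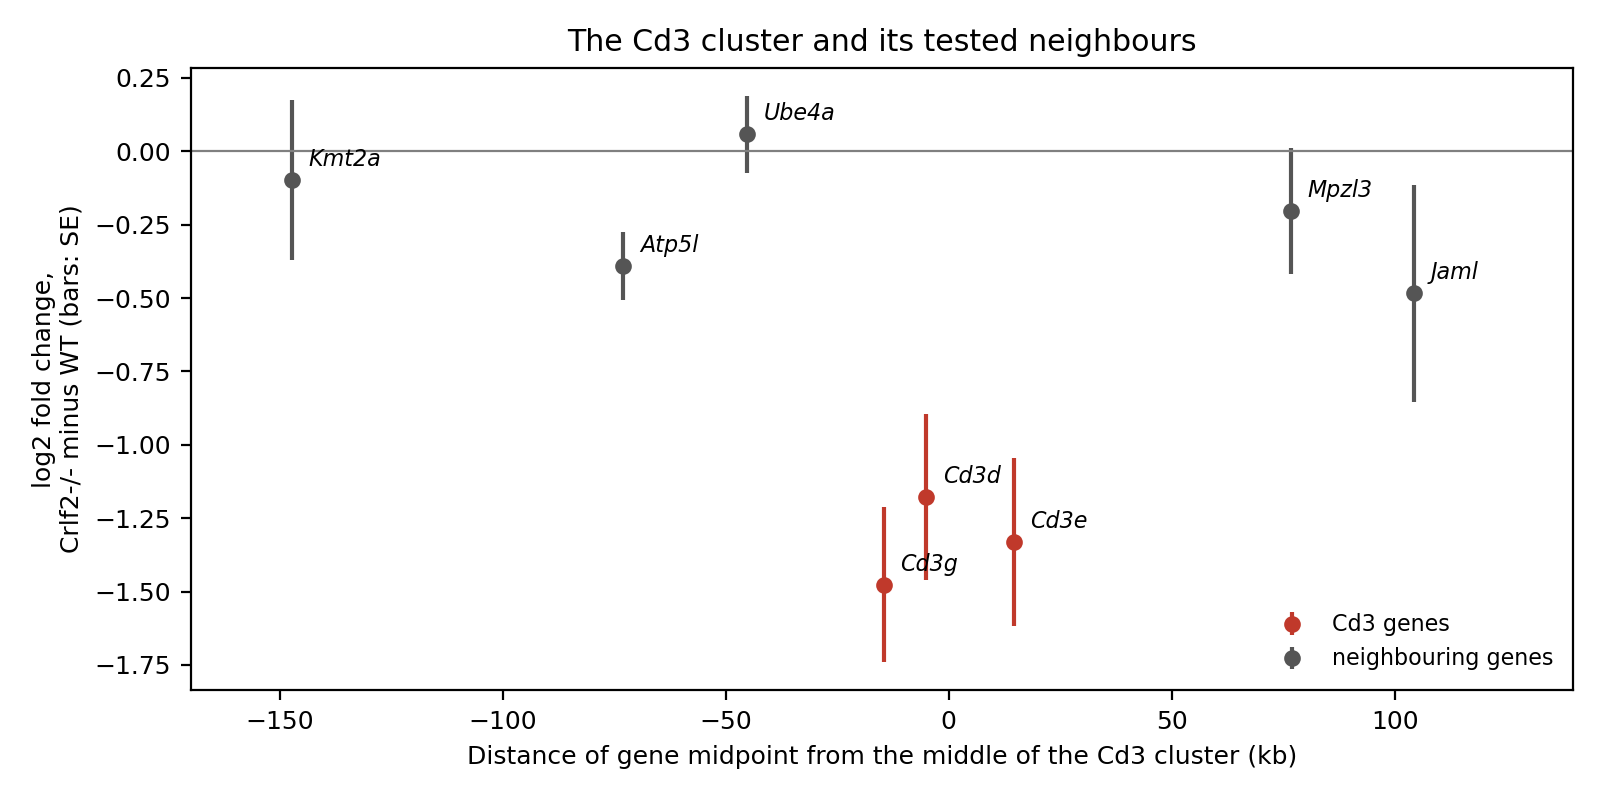
Log2 fold change with SE (*Crlf2*-/- minus WT) of the genes tested in and around the CD3 cluster, by distance of the gene's midpoint from the middle of the cluster in kb. *Cd3g*, *Cd3d* and *Cd3e*, which were chosen on this contrast, lie between -1.48 and -1.18 and the 5 neighbours between -0.48 and 0.06.

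The genes whose pattern was most like that of the 4 CD3 chains were sought by Pearson's r with their mean standardised profile over the 6 libraries, among 13477 genes with at least 30 fragments on average. An r of at least 0.9 was found for 187 of the 13477 genes (1.39%), and since all 6 libraries enter, the r mostly reflects the step between the genotypes. Of the genes outside the profile, *Themis* had an r of 0.97, *Zap70* 0.95, *Lck* 0.94, *Lat* 0.89 and *Lcp2* 0.49. The 4 chains, each of which is part of the profile, ran from 0.92 for *Cd3e* to 0.99 for *Cd3g*. The 10 other genes with the highest r, from 0.98 to 1.00, were *C87436*, *Acaa2*, *Ighg2c*, *Klhl2*, *Zfp874a*, *Prpsap2*, *Alas2*, *Hba-a2*, *Kctd20* and *Ctsw*. *Ighg2c*, an immunoglobulin heavy chain constant region, was covered by 229, 251 and 61 fragments in the WT hearts and by 5, 1 and 8 in the *Crlf2*-/- hearts. *Ctsw*, a protease gene of cytotoxic lymphocytes, was covered by 144, 134 and 104 fragments in the WT hearts and by 57, 59 and 70 in the *Crlf2*-/- hearts (log2 fold change -1.03, SE 0.15). *Kctd20* had a log2 fold change of only -0.13 (SE 0.09), so a high r here does not mean a large difference.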

How the data were processed

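Libraries of 6 infarcted hearts were read from 1 deposited expression table. Per the methods and the labels, the authors sequenced poly-A RNA, aligned paired reads with HISAT2 (2.0.5, in the submitters' processing notes), counted fragments per gene and deposited FPKM. Positions in the table matched GENCODE vM21 (GRCm38) for all 9 genes, exonic length included. The kit's strandedness is not given in the sources used here.

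Multiplying FPKM by gene length gave whole fragments for 100.0% of values (tolerance 0.02). A gene was tested if 3 or more libraries held 10 or more of its fragments and its total was 15 or more. For the fits, FPKM was recomputed from these fragments, with their sum over the listed genes times a TMM factor as the library size. After 0.1 was added, log2 values were fitted with limma 3.58.1 (R 4.3.3), with trended and robust variance, WT against *Crlf2*-/-, and Benjamini-Hochberg adjustment over 15520 genes. The steps were tested on simulated data in which only better-covered genes were changed, and by large folds. That check does not cover low counts or small differences. Alternatives were other pseudocounts, filters, no scaling, voom on fragments, a replicate block and leaving out each library. Whether the hearts of a group share a litter or a day is not stated, and p-values measure the spread between them.

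The 9 genes, the lists and the tests were chosen with earlier results of these data known. Beside the 9 genes, the text names *Crlf2*, every called gene of the pathway and counterpart lists, the lowest and highest of each role group, *Trac*, *Cd4*, *Fyn*, *Ptprc*, *Syk*, *Fcer1g* and *Lat2*, and the 10 genes of most similar pattern. Genes around the CD3 cluster and a few list members (*Trbc1*, *Ncr1*, *Nkg7*, *Mcpt4*, *Kit*, *Rag1*, *Rag2*, *Ptcra*, *Arpp21*, *Lyn* and *Pou2f1*) were named after their values were seen. The same holds for *Lyz2*, *Csf1r*, *Ly6c2*, *Pf4*, *Gp1bb*, *Il7r*, *Gzma*, *Prf1*, *Klrb1c*, *Klrk1*, *Klre1*, *Eomes*, *Tpsb2*, *Ms4a2* and *Fcer1a*. A few genes of the pathway and counterpart lists are not reported here, and list counts leave them out.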

Additional observations from a re-analysis of the deposited data

How the results depend on the processing

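Every log2 fold change of the 9 genes stayed below 0 in all 115 refits under other settings. For the 8 genes without overlap between groups this was fixed in advance, since pseudocounts, filters and left-out libraries cannot turn such a sign. Of the 115 refits, 13 moved the value by more than the spread between replicates, all through the pseudocount or voom. The median of the 9 was -0.43 with 1 added to FPKM, -1.67 with 0.01 added and -1.68 by voom on fragments, and -1.34 to -0.97 when 1 library was left out. The number of genes called was 2, and 6 with no filter, 1 with at least 10 fragments in every library, 4 with a replicate block and 3 by voom. Leaving out 1 library gave 1 to 14 genes called, with 14 without TSLPR KO replicate 1, 5 without WT replicate 3 and 1 without WT replicate 1, WT replicate 2 or TSLPR KO replicate 3. The pathway list and the counterparts had 0 called in each setting. The median of the pathway list was -0.17 without TSLPR KO replicate 1 and ran from -0.167 to -0.084 over the libraries left out. The filter of at least 10 fragments in every library removed *Cd3e* and *Cd247*. Beyond the smaller number of genes or libraries, no cause was tested.

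Signs near 0 turned with single libraries. On leaving out 1 library the log2 fold change of *Blnk* ran from -0.088 to 0.22, of *Blk* from -0.11 to 0.35, of *Prkcq* from -0.46 to 0.0017, of *Cd4* from -0.14 to 0.18, of *Cd79a* from -0.41 to 0.33, of *Fcer1g* from -0.13 to 0.16, of *Lat2* from -0.16 to 0.23, of *Ptprc* from -0.017 to 0.24 and of *Txk* from -0.11 to 0.10, and that of *Cd79a* was -0.0019 by voom.

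The replicate numbers are shared by the groups, but same-numbered libraries deviated from their group means with r of -0.02, 0.12 and 0.12, so they were not treated as pairs. With the number as a replicate block 4 genes were called in place of 2, and no fold change differed. Depth limits the low genes most, since the counting error of 1 knockout library was 28.9% for *Themis*.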
